A study of Mus musculus with 6 samples.

Results

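The LXR pathway and cholesterol efflux genes are 10 genes chosen by name: the receptor genes *Nr1h2* and *Nr1h3*, the efflux genes *Abca1*, *Abcg1* and *Apoe*, the further LXR target genes *Mylip* and *Lpcat3*, the oxysterol gene *Ch25h*, and the cholesteryl ester genes *Soat1* and *Nceh1*. All 10 were found among the 24445 genes of the deposited count table, and all 10 passed the filter on low counts. They were compared between IL-4-treated bone marrow-derived macrophages (BMDMs) lacking *Acly* (AclyM-KO) and IL-4-treated control BMDMs (Ctrl), with 3 libraries in each group. *Acly* encodes ATP citrate lyase, which makes cytosolic acetyl-CoA, the building block of fatty acids and cholesterol.

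Both groups carried loxP sites around exon 9 of *Acly* on both alleles, and were female C57Bl/6J mice whose age at marrow harvest is not given in the sources used here. The AclyM-KO mice also carried a Cre under control of *Lyz2*, a gene of macrophages and neutrophils, so that deletion occurred in myeloid cells. Marrow precursors spent 7 days in L929-conditioned medium, a source of macrophage colony-stimulating factor, and then received 100 U/mL IL-4 for 24 h. The study calls its replicates biological in one place and technical replicates of pooled mice in another, so p-values here measure the spread between libraries, which may be technical. Each library held 12151975 to 15587283 counts on the rows used, and replicate libraries differed from each other beyond what counting error gives. Expression is given as CPM, the count scaled to a common library size after TMM normalisation. *Acly* itself averaged 334 ± 14.4 CPM in Ctrl and 138 ± 6.63 CPM in AclyM-KO (SD, n = 3 each) with a log2 fold change of -1.27, and each AclyM-KO library lay below each Ctrl library.

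The liver X receptors LXRα and LXRβ are nuclear receptors that bind oxysterols and desmosterol, form dimers with the retinoid X receptors (RXRs), and switch on genes that remove cholesterol from the cell. In macrophages the best known of these encode the transporters ABCA1 and ABCG1, which load cholesterol onto lipoprotein particles, and apolipoprotein E, which accepts it. The opposing arm, cholesterol synthesis and lipoprotein uptake, is driven by SREBP-2, which is active when membrane cholesterol is low. Within the cell, surplus cholesterol is stored as esters and released again from them.

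Of the 10 genes, 3 were lower and 2 were higher in AclyM-KO (edgeR quasi-likelihood test, adjusted p-value under 0.05 over 12023 genes tested). Over all genes tested, 12.6% were lower and 12.4% higher by this rule. *Apoe*, *Abca1* and *Abcg1* fell to 58.4%, 70.8% and 79.9% of the Ctrl mean, whereas *Ch25h* rose to 193% and *Lpcat3* to 111%. When a change larger than 0.58 on the log2 scale was also required, *Apoe* was lower and *Ch25h* higher, against a background of 2.57% and 2.98% of all genes. The groups did not overlap for 6 of the 10 genes, against 40.2% of all genes tested: 4 were lower in each AclyM-KO library, against 19.8% of all genes, and 2 were higher, against 20.5%. An exact two-sided permutation test of 3 against 3 libraries cannot give a p-value under 0.10, which is what it gave for each of these 6. The median log2 fold change of the 10 genes was -0.11, and that of all genes tested was 0.0014. The 10 genes were chosen with earlier results of these data known, so the comparison with all genes is not a neutral one.

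**Figure D1:**
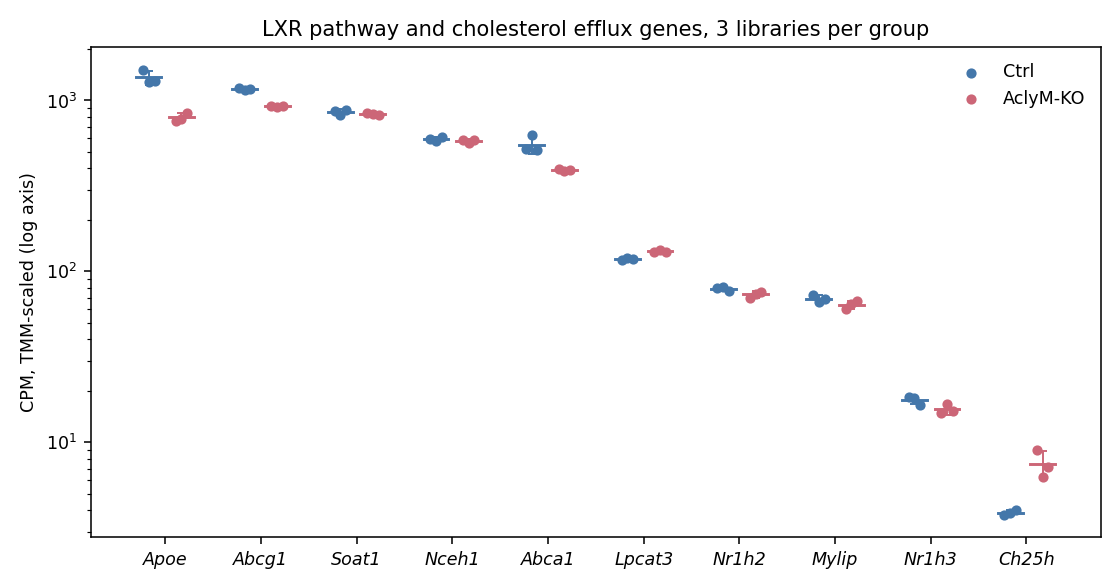
Expression of the 10 genes in CPM (log axis), ordered by mean level. Points are the 3 libraries of each group, bars the mean and the SD; *Apoe*, *Abca1* and *Abcg1* sit lower and *Ch25h* and *Lpcat3* sit higher in all 3 AclyM-KO libraries.

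Sequences before the start of 3 of these genes are shown because *Apoe* and *Abca1* fell most and *Ch25h* rose most. They are from RefSeq's annotation of GRCm38.p6 and read 5′ to 3′ on the coding strand, which is the minus strand for all 3 genes. The first covers chr4:53159896-53160145, the 250 bases before the start of *Abca1*. The second covers chr7:19699189-19699438, the 250 bases before the most upstream start of *Apoe*. The third covers chr19:34475165-34475398, the 234 bases before the annotated exon of *Ch25h*. Capitals mark a 16-base element resembling the LXR response element, the E-box CACGTG and the TATA box TATAAA in *Abca1*, and TATAAA and the cyclic AMP response element TGACGTCA in *Ch25h*; none of these was found in the bases printed for *Apoe*.
Abca1: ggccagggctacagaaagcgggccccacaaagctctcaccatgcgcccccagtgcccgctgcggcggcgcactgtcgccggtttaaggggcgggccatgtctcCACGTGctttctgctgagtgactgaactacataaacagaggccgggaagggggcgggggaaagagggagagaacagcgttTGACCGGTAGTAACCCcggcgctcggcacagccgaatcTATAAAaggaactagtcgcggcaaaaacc
Apoe: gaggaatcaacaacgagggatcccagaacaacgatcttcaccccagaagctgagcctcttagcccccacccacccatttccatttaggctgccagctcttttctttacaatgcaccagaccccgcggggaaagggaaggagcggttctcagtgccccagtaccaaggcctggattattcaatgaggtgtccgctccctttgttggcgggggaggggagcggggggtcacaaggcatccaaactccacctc
Ch25h: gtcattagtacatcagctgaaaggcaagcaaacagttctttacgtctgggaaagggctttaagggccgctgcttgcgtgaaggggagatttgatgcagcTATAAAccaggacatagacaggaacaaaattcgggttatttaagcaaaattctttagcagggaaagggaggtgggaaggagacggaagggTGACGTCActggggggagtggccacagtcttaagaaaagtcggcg

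LXR and RXR bind the DR4 motif, a direct repeat of AGGTCA with 4 bases of any kind in between. This motif was searched on both strands in 32851 promoter windows running from 250 bases before to 50 bases after a start; 9 of the 10 genes had such a window, and *Abcg1* had none in the table. With up to 2 mismatches in the 12 bases of the repeat, none of the 9 genes matched, while 3.02% of all windows did. With 3 mismatches allowed, *Abca1* was the only one of the 9 that matched, as did 21.9% of all windows. Its element begins 67 bases before the start and reads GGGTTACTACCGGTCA on the other strand. CACGTG was present in 7.15% of windows, TATAAA in 13.6% and TGACGTCA in 1.79%. TGACGTCA was found for *Ch25h* alone among the 9 genes, CACGTG for *Abca1* and *Nceh1*, and TATAAA for *Abca1*, *Apoe* (in the window of another start), *Ch25h* and *Mylip*. These 3 short motifs were chosen after the sequences were seen, and a match of letters does not show binding. Bases outside the windows were not searched, so a missing match does not show that a gene lacks an LXR element.

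The receptor genes differed little between genotypes. *Nr1h2*, which encodes LXRβ, lies on chromosome 7 from 44549616 to 44553951 and measured 79.5, 80.6 and 76.4 CPM in the Ctrl libraries and 69.7, 74.1 and 76.1 CPM in the AclyM-KO libraries. The highest AclyM-KO library lay just under the lowest Ctrl library, so the groups did not overlap, but the log2 fold change of -0.10 (95% interval -0.22 to 0.0084) did not pass the test (edgeR adjusted p = 0.169). *Nr1h3*, which encodes LXRα, lies on chromosome 2 from 91184061 to 91202834 and measured 18.3, 18.2 and 16.6 CPM in Ctrl and 14.8, 16.8 and 15.2 CPM in AclyM-KO. Its groups overlapped and its log2 fold change was -0.18 (95% interval -0.38 to 0.020, edgeR adjusted p = 0.181). Scaled by transcript length, *Nr1h2* was the more abundant receptor transcript in all 6 libraries, at 3.90 to 4.14 times the level of *Nr1h3* in Ctrl and 3.98 to 4.51 times in AclyM-KO.

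Transcripts of all 3 efflux genes were lower in AclyM-KO. *Apoe*, on the minus strand of chromosome 7 from 19696109 to 19699188, encodes apolipoprotein E and was the most abundant of the 10 genes per transcript length in both groups. Its expression was 1514, 1282 and 1302 CPM in Ctrl and 763, 784 and 845 CPM in AclyM-KO. Even the highest AclyM-KO library was well below the lowest Ctrl library. The mean was 1366 ± 129 CPM in Ctrl and 797 ± 42.4 CPM in AclyM-KO (SD, n = 3 each). The fitted log2 fold change, -0.78 with a standard error of 0.0581 (edgeR adjusted p = 2.18e-07), placed *Apoe* at rank 39 of all genes tested by p-value. The table holds 4 RefSeq rows for *Apoe*, and their counts were almost the same because the isoforms share most of their exons.

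*Abca1*, on the minus strand of chromosome 4 from 53030787 to 53159895, encodes the transporter that hands cholesterol and phospholipid to lipid-poor apolipoprotein A-I. It measured 518, 626 and 511 CPM in Ctrl and 397, 385 and 390 CPM in AclyM-KO. Ctrl replicate 2 stood above the other Ctrl libraries, whereas the AclyM-KO libraries lay close together. The log2 fold change was -0.50 with a standard error of 0.0644 (edgeR adjusted p = 4.74e-05), and -0.40 when that library was left out.

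*Abcg1*, on the plus strand of chromosome 17 from 31057675 to 31117988, encodes the transporter that supplies cholesterol to mature HDL. It measured 1181, 1146 and 1162 CPM in Ctrl and 934, 920 and 934 CPM in AclyM-KO. Libraries of a group were nearly equal, and the groups were well apart. The log2 fold change was smaller than that of the other efflux genes, -0.32 with a standard error of 0.0367 (edgeR adjusted p = 1.31e-05). The level of *Abca1* per transcript length was 0.250 to 0.311 of that of *Abcg1* in Ctrl and 0.237 to 0.242 in AclyM-KO.

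**Figure D2:**
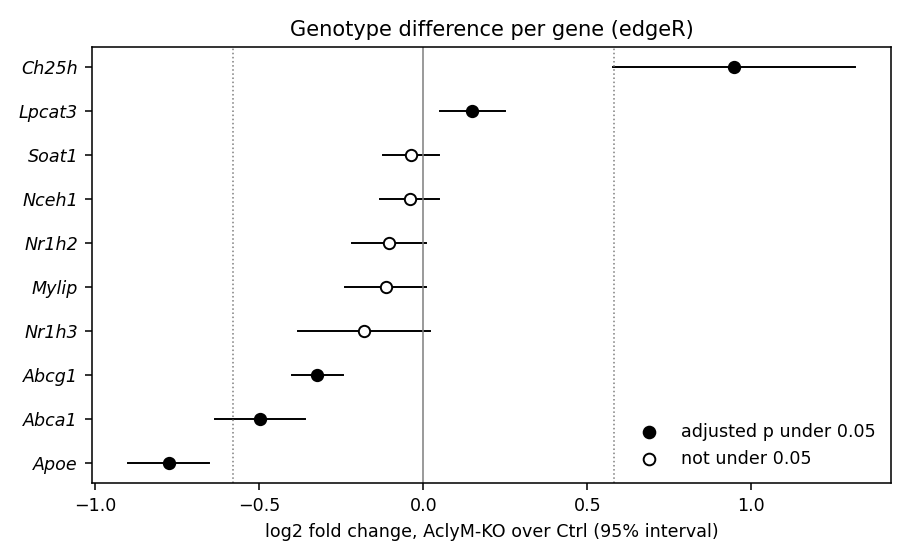
Log2 fold change of each of the 10 genes (AclyM-KO over Ctrl) with its 95% interval from edgeR; filled points have an adjusted p-value under 0.05 and dotted lines mark 0.58 in either direction. The interval of *Apoe* lies wholly below -0.58, that of *Ch25h* begins at 0.58, and those of the receptor genes, *Mylip*, *Soat1* and *Nceh1* include 0.

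Of the other LXR target genes among the 10, *Mylip* did not pass the test and *Lpcat3* was higher. *Mylip*, on chromosome 13 from 45389742 to 45412022, encodes IDOL, a ubiquitin ligase that marks lipoprotein receptors for degradation. It measured 72.6, 66.3 and 68.8 CPM in Ctrl and 60.4, 64.2 and 67.4 CPM in AclyM-KO, with overlapping groups and a log2 fold change of -0.11 (95% interval -0.24 to 0.0091, edgeR adjusted p = 0.168). *Lpcat3*, on chromosome 6 from 124663027 to 124704418, encodes the acyltransferase that puts polyunsaturated chains into membrane phospholipids. It measured 117, 119 and 118 CPM in Ctrl and 130.0, 133 and 129.9 CPM in AclyM-KO, so that the groups were tight and apart.

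The rise of *Lpcat3* was small (0.15 on the log2 scale with a standard error of 0.0468, edgeR adjusted p = 0.0295) and lost its side of the threshold in 9 of 16 alternatives, with DESeq2, with library totals as the scale, without a filter on low counts, with a replicate term, and in all fits without 1 library except that without Ctrl replicate 2. Exons of *Emg1* on the other strand cover 14.6% of the *Lpcat3* transcript. Whether the counting used strand is not given in the sources used here. *Xist* and its antisense gene *Tsix* had equal counts in 5 of 6 libraries. Reads from bases that both genes of such a pair cover may therefore not be told apart. *Emg1* was at 28.9 ± 4.43 CPM in Ctrl and 32.1 ± 2.07 CPM in AclyM-KO (SD, n = 3 each), with overlapping groups, and its part in the result was not tested.

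*Ch25h*, a single-exon gene on chromosome 19 from 34473778 to 34475164, encodes cholesterol 25-hydroxylase, which makes 25-hydroxycholesterol, an LXR ligand that also restrains SREBP processing. Its counts were 56, 47 and 53 in the Ctrl libraries and 132, 98 and 105 in those of AclyM-KO. This corresponds to 3.78, 3.84 and 4.02 CPM in Ctrl and 9.01, 6.31 and 7.20 CPM in AclyM-KO. The Ctrl libraries were close together, and AclyM-KO replicate 1 was the highest of all. Its log2 fold change was 0.95 with a standard error of 0.174 (edgeR adjusted p = 9.58e-04), and 0.80 when AclyM-KO replicate 1 was left out. *Ch25h* was the least abundant of the 10 genes in both groups, and 11.5% of its exonic bases lie under exons of the other-strand gene *Gm26902*, for which no count row was used here.

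*Soat1* and *Nceh1*, the cholesteryl ester genes among the 10, did not pass the test. *Soat1*, on chromosome 1 from 156424525 to 156474331, encodes the acyltransferase that esterifies cholesterol for storage and measured 863, 825 and 883 CPM in Ctrl and 844, 838 and 824 CPM in AclyM-KO. *Nceh1*, on chromosome 3 from 27182965 to 27284608, encodes a hydrolase that releases cholesterol from esters and measured 598, 581 and 614 CPM in Ctrl and 589, 566 and 587 CPM in AclyM-KO. Both had overlapping groups. The log2 fold changes were -0.037 (95% interval -0.12 to 0.049, edgeR adjusted p = 0.546) for *Soat1* and -0.042 (95% interval -0.13 to 0.048, edgeR adjusted p = 0.515) for *Nceh1*. The ratio of *Soat1* to *Nceh1* per transcript length was 0.758 to 0.769 in Ctrl and 0.751 to 0.794 in AclyM-KO.

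Levels of different genes can be compared only per transcript length. In Ctrl, the order in CPM per kb was *Apoe* (972 ± 94.1), *Abcg1* (199 ± 3.00), *Nceh1* (134 ± 3.51), *Soat1* (102 ± 3.33), *Abca1* (53.8 ± 6.27), *Lpcat3* (51.8 ± 0.404), *Nr1h2* (39.4 ± 1.10), *Mylip* (22.6 ± 1.06), *Nr1h3* (9.84 ± 0.539) and *Ch25h* (2.80 ± 0.0889; SD, n = 3 each). Neighbours in this order were separated in all libraries except *Abca1* and *Lpcat3*, whose ranges overlapped. In AclyM-KO, *Lpcat3* (57.5 ± 0.808) stood above *Abca1* (38.1 ± 0.603) without overlap, and *Abca1* overlapped with *Nr1h2* (36.7 ± 1.69). The other genes kept their place.

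**Figure D3:**
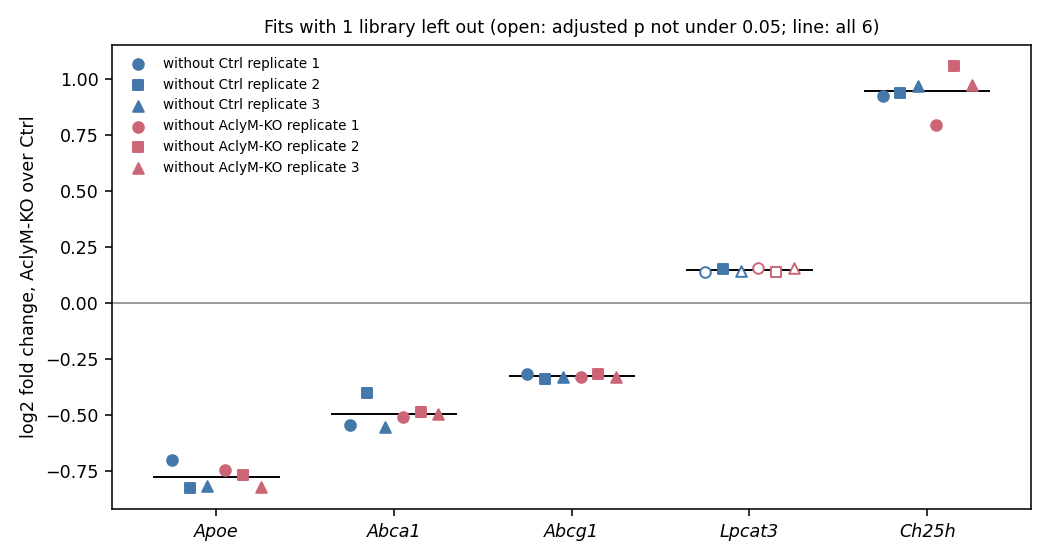
Log2 fold changes of the 5 genes that passed the test, refitted with each of the 6 libraries left out; the horizontal line is the value from all libraries and open symbols have an adjusted p-value of 0.05 or more. *Apoe*, *Abca1*, *Abcg1* and *Ch25h* passed in all 6 fits, and *Lpcat3* passed in 1.

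*Apoe* had the lowest adjusted p-value of the 10 genes, so the genes with the most similar profile over the 6 libraries were sought for it. Likeness was the root-mean-square difference between log2 CPM profiles, each centred on its own mean, over 8411 other genes with a mean of at least 10 CPM. The closest was *Mertk* (0.0594 on the log2 scale), which encodes a receptor for apoptotic cells, followed by *Slc40a1* (0.0613), which encodes the iron exporter ferroportin, and *Mif* (0.0648), which encodes a cytokine and has processed pseudogenes that can share its reads. *Mertk* measured 172, 155 and 156 CPM in Ctrl and 99.3, 93.0 and 99.6 CPM in AclyM-KO. Like *Apoe*, it was highest in Ctrl replicate 1, as were *Slc40a1* and *Mif*. The macrophage markers *C1qa* (0.0694) and *Lyz2* (0.0704) came only a little further down and were also highest in that library. The ranking selects genes that share the pattern of *Apoe* over the libraries, so this likeness is not a separate result.

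Beyond the 10 genes, 6 lists covered 88 further genes of the pathway, of which 74 were tested. Of these, 16 were higher and 16 were lower in AclyM-KO and 42 did not pass the test. Over all genes tested, 12.4% were higher and 12.6% lower, which is the background for each list below. The median log2 fold change was 0.0076.

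Other LXR target genes went both ways, with 6 higher, 3 lower and 7 not passing the test among 16 tested. The fatty acid synthase gene *Fasn* rose most, from 384 ± 23.5 to 826 ± 36.1 CPM (SD, n = 3 each; log2 fold change 1.10, edgeR adjusted p = 1.59e-09). The acyl-CoA synthetase gene *Acsl3* (0.54), the gene *Cd5l* for a secreted macrophage protein (0.43) and the stearoyl-CoA desaturase gene *Scd1* (0.38) also rose on the log2 scale. *Fasn* and *Scd1* are SREBP targets as well. *Mertk* and the transglutaminase gene *Tgm2* fell by 0.73 and 0.71 on the log2 scale, to 60.4% and 61.2% of Ctrl. *Srebf1*, the LXR target that encodes SREBP-1, measured 130 ± 10.2 CPM in Ctrl and 141 ± 2.49 CPM in AclyM-KO (SD, n = 3 each), and this difference did not pass the test (0.12, edgeR adjusted p = 0.138). *Srebf1*, like *Emg1* and the neighbours of *Apoe*, was chosen outside the rule for named genes after its values were seen.

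*Apoe* lies in a gene cluster on chromosome 7 with *Apoc1*, *Apoc4* and *Apoc2*, which are under common LXR control in macrophages. Its neighbours were hardly expressed here. *Apoc1* had at most 3 counts and *Apoc4* at most 1 in any library, so neither was tested. *Apoc2* measured 2.76 ± 0.790 CPM in Ctrl and 3.16 ± 0.610 CPM in AclyM-KO (SD, n = 3 each), and the difference of 0.19 on the log2 scale did not pass the test (edgeR adjusted p = 0.627). The other untested LXR target genes were *Mlxipl*, *Abcg4*, *Abcg5* and *Abcg8*.

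Partners and cofactors of LXR held 3 genes that were lower and 0 that were higher among 15 tested, against 12.6% and 12.4% of all genes. Of the 15, 4 had an unadjusted edgeR p-value under 0.05. Such values were common over all genes, as *Srebf1*, with an unadjusted edgeR p-value of 0.0509, ranked 4441 of 12023 genes tested. *Rxra*, which encodes the RXR partner of LXR, fell from 83.9 ± 6.25 to 68.9 ± 4.19 CPM (SD, n = 3 each; log2 fold change -0.29, edgeR adjusted p = 0.00391). The coactivator genes *Ncoa2* and *Ncoa3* fell by 0.25 and 0.16 on the log2 scale. *Ncoa3* lost its side of the threshold in 5 of 16 alternatives. *Rxrg* was not tested.

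Enzymes that make or remove LXR ligands and cholesteryl esters moved in both directions, with 3 higher, 2 lower and 4 not passing the test among 9 tested. *Soat2*, a second cholesterol acyltransferase gene, was counted 19, 39 and 38 times in Ctrl and 100, 119 and 85 times in AclyM-KO (log2 fold change 1.49, edgeR adjusted p = 3.93e-04). Its groups were apart, at 1.28 to 3.19 CPM in Ctrl and 5.82 to 7.66 CPM in AclyM-KO. *Ebp*, which encodes a sterol isomerase, rose by 0.23 on the log2 scale, and this call was lost in 2 of 16 alternatives. *Cyp27a1*, which encodes the enzyme that makes 27-hydroxycholesterol, fell from 24.8 ± 0.973 to 17.3 ± 1.75 CPM (SD, n = 3 each; log2 fold change -0.52, edgeR adjusted p = 5.96e-04). *Lipe*, which encodes hormone-sensitive lipase, fell by 0.46 on the log2 scale. *Cyp7b1*, *Cyp46a1*, *Cyp11a1* and *Ces1d* were not tested.

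**Figure D4:**
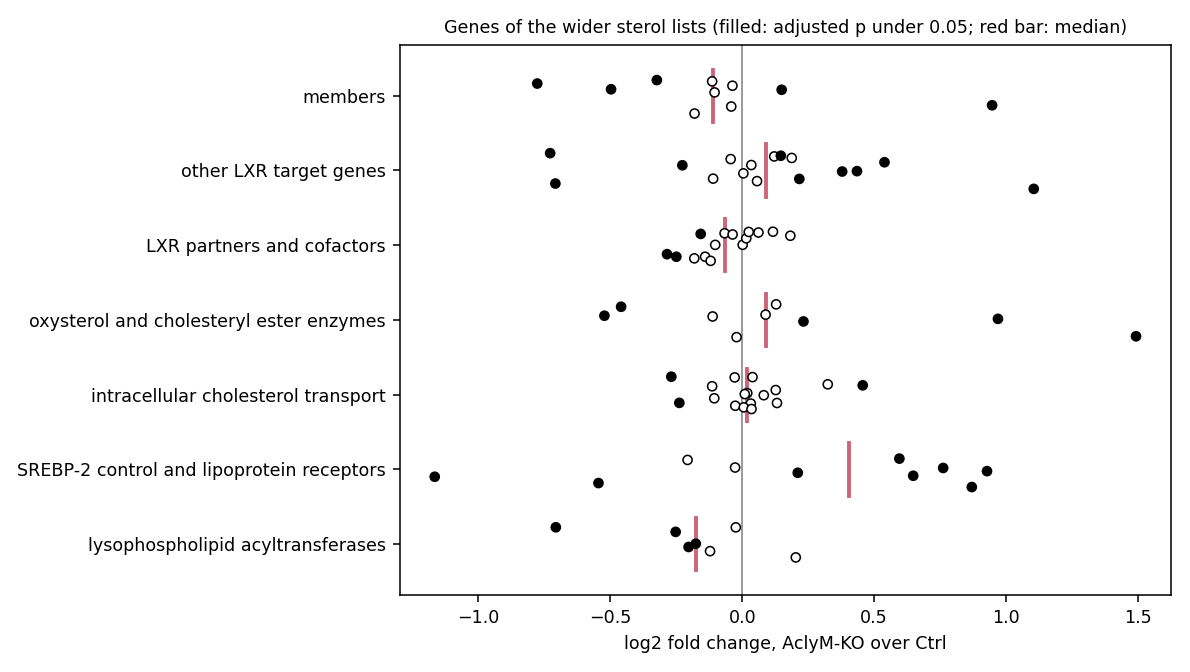
Log2 fold changes (AclyM-KO over Ctrl) of the 10 genes, named members, and of the 6 wider lists; each point is a gene tested, filled where its adjusted p-value was under 0.05, and red bars are medians. The list of SREBP-2 control and lipoprotein receptor genes has its median at 0.40, and the other lists have medians between -0.18 and 0.09.

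Genes of intracellular cholesterol transport mostly did not pass the test (14 of 17 tested). *Stard4*, which encodes a sterol carrier and is an SREBP-2 target, rose from 128 ± 11.2 to 175 ± 3.55 CPM (SD, n = 3 each; log2 fold change 0.46, edgeR adjusted p = 4.94e-05). *Gramd1b*, which encodes a carrier from plasma membrane to endoplasmic reticulum, fell by 0.27 on the log2 scale, and *Stard5*, which encodes another sterol-binding carrier, fell by 0.24, a call lost in 2 of 16 alternatives. *Gramd1c* was not tested.

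SREBP-2 control and lipoprotein receptor genes held 6 higher and 2 lower among 10 tested. *Lrp8*, which encodes an IDOL substrate and apolipoprotein E receptor, rose by 0.93 on the log2 scale. *Insig1*, which retains SREBP in the endoplasmic reticulum, and *Sqle*, which encodes the sterol synthesis enzyme squalene epoxidase, rose by 0.87 and 0.65. *Lrp1*, which encodes a large endocytic receptor that also binds apolipoprotein E, measured 823, 1411 and 864 CPM in Ctrl and 752, 645 and 727 CPM in AclyM-KO (log2 fold change -0.55, edgeR adjusted p = 0.00982). *Lrp1* was far higher in Ctrl replicate 2 than in the other libraries, and without that library the log2 fold change was -0.26. The call was lost without AclyM-KO replicate 2 (-0.48, edgeR adjusted p = 0.0677) and with DESeq2 (-0.55, adjusted p = 0.152). *Vldlr*, the second lower gene, was at 1.35 ± 0.363 CPM in Ctrl and 0.602 ± 0.0505 CPM in AclyM-KO (SD, n = 3 each) and is named beyond the rule because the count is small.

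Lysophospholipid acyltransferase genes other than *Lpcat3* held 4 lower and 0 higher among 7 tested, against 12.6% and 12.4% of all genes. These 4 were also the only ones with an unadjusted edgeR p-value under 0.05, which was common over all genes, as given above with the rank of *Srebf1*. *Lpcat2* measured 24.7, 21.1 and 20.1 CPM in Ctrl and averaged 13.5 ± 0.466 CPM in AclyM-KO (SD, n = 3; log2 fold change -0.71, edgeR adjusted p = 1.02e-04). *Agpat3*, *Lclat1* and *Lpcat1* fell by 0.25, 0.20 and 0.18 on the log2 scale. The calls of *Lclat1* and *Lpcat1* were lost in 8 and 6 of 16 alternatives. *Mboat2* was not tested.

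Macrophage identity was checked with 10 marker genes, all of which were expressed. Their summed level was 20700 to 21800 CPM in Ctrl and 17600 to 18000 CPM in AclyM-KO. Of the 10 markers, 6 were lower and 1 was higher, against 12.6% and 12.4% of all genes tested. Most of the difference in the sum came from *Lyz2*, whose locus drives the Cre. *Lyz2* fell from 6595 to 4142 CPM, to 62.8% of Ctrl. The complement genes *C1qa*, *C1qb* and *C1qc* fell to 63.1%, 73.5% and 69.1%, beside the 58.4% of *Apoe*. *Adgre1*, which encodes F4/80, rose to 126%. Neutrophil markers summed to 33.3 to 35.9 CPM in Ctrl and 63.8 to 68.1 CPM in AclyM-KO, with 3 of the 5 tested higher. Most of this difference came from *Mmp8*, which encodes a collagenase and rose from 16.9 to 40.1 CPM, while *S100a8* rose from 2.95 to 5.33 CPM and *S100a9* from 5.61 to 8.44 CPM. The defining neutrophil markers *Ly6g*, *Mpo* and *Elane* were at 5 counts or fewer in any library. Dendritic cell, stromal and lymphocyte markers summed to at most 5.28, 2.33 and 0.676 CPM in any library. The part of these differences in the results for the 10 genes was not tested. In bulk RNA, fewer cells of a type and less RNA per cell cannot be told apart.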

How the data were processed

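The authors extracted RNA from IL-4-treated BMDMs, made strand-specific mRNA libraries with the KAPA HyperPrep kit, and aligned reads to mm10 with STAR 2.5.2b after base calling with CASAVA 1.8.2, per the submitters' processing notes. The table the authors deposited holds unnormalised counts, 1 row per RefSeq transcript. The counting program is not given in the sources used here. The 35745 rows were paired with symbols through RefSeq's GRCm38.p6 table and GENCODE M21; 117 rows without a gene, holding 0.370% to 1.38% of a library's counts, were left out. Isoforms repeat counts, so the row with the highest 6-library total was kept for each of 24445 genes. Genome positions and transcript lengths are from GENCODE M21 (GRCm38).

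The quasi-likelihood test of edgeR 4.0.16 (R 4.3.3) was applied to the counts after filterByExpr and TMM scaling, with a model of genotype alone, and p-values were adjusted by Benjamini-Hochberg over all genes tested; the study used DESeq2, run here as an alternative (1.42.0). Log2 CPM used a prior count of 2. Named genes were the 10 genes, *Acly*, for each wider list at most 6 genes with an adjusted p-value under 0.05, a mean of at least 1 CPM and the largest changes, and the 3 genes most like the member with the lowest adjusted p-value. The 10 genes, the lists and the tests were chosen with earlier results of these data known. The procedure was also run on simulated counts with changes larger than most of those described here, and the outcome is not reported here. Alternatives were other scalings, filters, rows per gene, tools (limma 3.58.1), a replicate term and leaving out each library. Some genes of the wider lists are counted in them but not reported here by name.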

Additional observations from a re-analysis of the deposited data

How the results depend on the processing

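Each of the 10 genes, *Acly* and the genes named from the wider lists by the rule kept its direction in all 16 alternatives. Over the 10 genes, 151 refits gave the same side of the threshold, and 9 did not, which all concerned *Lpcat3*. The number of the 10 genes that were higher was 1 in place of 2 with library totals as the scale (edgeR adjusted p of *Lpcat3* = 0.0538), without a filter on low counts, with DESeq2 and with the replicate block, and 1 to 2 when single libraries were left out; the cause was not tested. The number lower was 3 in all alternatives. Over all genes, 972 to 1548 were lower when single libraries were left out, against 1511 with all 6; the lowest value came without AclyM-KO replicate 2. Without a library there are fewer samples in the fit.

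The counts gave no sign that the replicate numbers pair the libraries, though they cannot show how the libraries were prepared. Deviations of same-numbered libraries from their group means correlated at -0.065, 0.050 and -0.031 over 12023 genes. Those of differently numbered libraries correlated at -0.076 to 0.11. In the fit with the replicate block, the log2 fold changes of *Apoe*, *Abca1*, *Abcg1* and *Ch25h* were -0.77, -0.49, -0.32 and 0.95. Depth limits *Ch25h* most, with 47 to 132 counts per library, and *Nr1h3* next, with 217 to 271. Another transcript length gave 8.91 in place of 9.84 CPM per kb for *Nr1h3* and 49.8 in place of 51.8 for *Lpcat3*.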
